A study of Mus musculus with 27 samples.

Results

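Matrix metalloproteinases and their tissue inhibitors were followed in epididymal white adipose tissue through weight gain, loss, maintenance and regain. The members were 10 genes selected by name, namely the proteases Mmp2, Mmp3, Mmp9, Mmp12, Mmp13, Mmp14 and Mmp19 and the inhibitors Timp1, Timp2 and Timp3. They were 10 of 43460 gene names in the deposited table, and all 10 passed the filter on low counts that left 17821 names for testing. RNA was measured in 27 libraries from C57BL/6N mice, 3 in each of 9 groups. The high-fat diet supplied 60% of its energy as fat. Gain8 mice ate it for 8 weeks and were 13 weeks old; control8 mice were of the same age and had eaten normal diet for 8 weeks; the initial group was 5 weeks old, before treatment. Loss mice had returned from high-fat to normal diet for 4 weeks, and control12 mice had eaten normal diet for 12 weeks, both at 17 weeks of age. The last 4 groups were 21 weeks old after a treatment period of 16 weeks. Among these, maintenance mice had eaten normal diet for 8 weeks after the high-fat diet, regain mice had gone back to the high-fat diet for 4 weeks after losing weight, gain4 mice had eaten it for 4 weeks, and control16 mice had eaten normal diet for 16 weeks. The labels used here do not give the diet of gain4 mice before those 4 weeks. Nor do they state whether the libraries of a group came from different animals; p-values here reflect only the variation among those libraries, which may be technical.

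Matrix metalloproteinases are zinc-dependent enzymes that cut proteins of the extracellular matrix and many proteins at the cell surface. Most are secreted as inactive precursors, whereas Mmp14 is anchored in the membrane and can activate the Mmp2 precursor in a complex that involves Timp2. TIMPs bind the active site of the proteases and block it. In adipose tissue the enzymes take part in the remodelling that goes with growth and shrinkage of the fat pad; Mmp12 is known as the macrophage elastase, and Mmp2 and Mmp14 are made largely by stromal cells. A transcript level shows neither the amount of active enzyme nor its inhibition. In whole tissue, more cells of a type and more RNA per cell cannot be told apart.

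Libraries held 26479773 to 32728594 counts. The summed level of 11 adipocyte markers was 9146 to 47130 CPM (counts scaled to library size), and none of these markers was at 0 in any library. Several libraries stood apart. Loss library 1 had the lowest adipocyte sum and the highest sum of 14 macrophage markers, 13680 CPM, against 1062 to 11720 CPM in the other libraries. Maintenance library 3 had a sum of 8053 CPM over 12 liver markers, against at most 129.9 CPM elsewhere, and the lowest macrophage and stromal sums. The highest sum over 11 markers of epididymis and efferent duct was 210.1 CPM, in control12 library 3. The 3 of these libraries that stood apart in loss, maintenance and control12 were left out together in an alternative fit, and its values are given wherever they changed a call.

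Mmp13, Mmp12 and Mmp3 lie in this order on the plus strand of chromosome 9, within 183462 bases, in GENCODE's annotation of GRCm38. Their promoters are shown because these neighbours had the 3 highest log2 fold changes among the members in loss against control12. That order rested on libraries that stood apart: without those 3, Timp1 lay above Mmp3 and Mmp13, by the values given below. The promoter of Mmp14, which differed less, is given beside them. The table of RefSeq promoters (GRCm38.p6) held 7 of the 10 members, with 2 starts for Mmp12. For Mmp12 only the stretch before the downstream start is shown. GENCODE's start of the gene, base 7344381, lies by the upstream start. Each sequence below is the 120 bases before the annotated start, 5′ to 3′ on the gene's strand, with matches to the AP-1 motif TGAGTCA (either strand) in capitals.
Mmp12, downstream start, chr9:7347254-7347373, plus strand: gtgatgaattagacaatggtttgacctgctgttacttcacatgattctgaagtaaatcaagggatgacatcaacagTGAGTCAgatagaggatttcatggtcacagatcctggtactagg
Mmp13, chr9:7272394-7272513, plus strand: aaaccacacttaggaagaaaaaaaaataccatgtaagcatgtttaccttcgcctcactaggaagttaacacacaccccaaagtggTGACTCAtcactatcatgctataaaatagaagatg
Mmp3, chr9:7445702-7445821, plus strand: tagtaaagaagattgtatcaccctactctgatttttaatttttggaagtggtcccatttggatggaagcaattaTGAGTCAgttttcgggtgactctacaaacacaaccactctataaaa
Mmp14, chr14:54431478-54431597, plus strand: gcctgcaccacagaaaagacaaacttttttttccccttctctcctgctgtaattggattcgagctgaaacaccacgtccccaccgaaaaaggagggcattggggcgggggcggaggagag
The match lay 44 bases before the downstream Mmp12 start, 35 bases before the Mmp13 start, where it is on the minus strand, and 46 bases before the Mmp3 start. AP-1 is a family of Fos and Jun dimers known to act on several protease genes. No match was found in the 250 bases before the starts of Mmp14, Timp1, Timp2 and Timp3 or before the upstream start of Mmp12. Among all 32851 promoters of the table, 4.46% held the motif in the same 250 bases. The ETS core GAGGAA, present in 23.25% of promoters, was found 86 bases before the upstream start of Mmp12 and in none of the other promoters searched. The E-box CACGTG, present in 6.02% of promoters, was found in none of those searched. The promoters of Mmp2, Mmp9 and Mmp19 were not searched. A match is a description of letters and does not show binding.

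**Figure D1:**
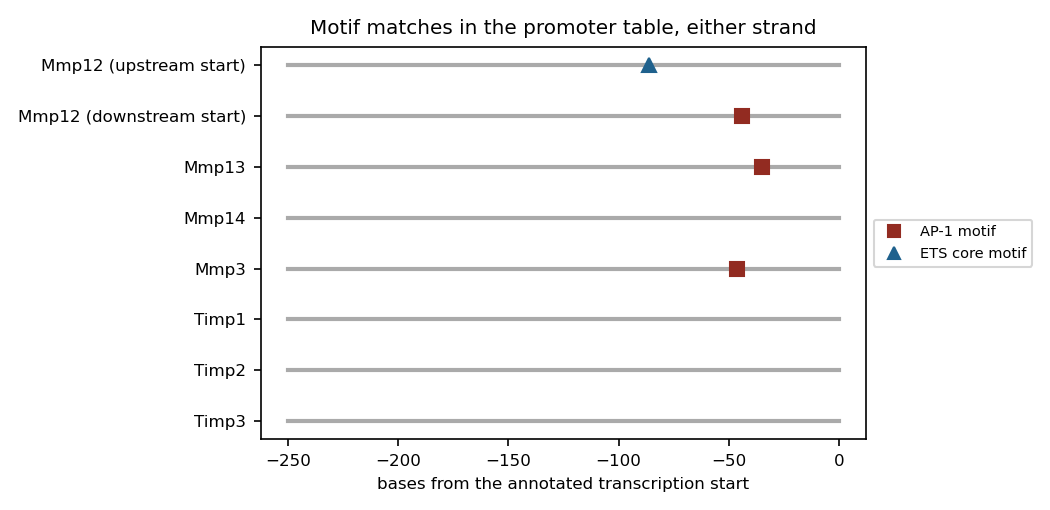
Positions of AP-1 (squares) and ETS core (triangles) motif matches on either strand in the 250 bases before each annotated start of the 7 members in the RefSeq promoter table; the x axis is the distance from the start in bases. AP-1 matches lie 44, 35 and 46 bases before the downstream Mmp12 start, the Mmp13 start and the Mmp3 start.

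The members separated the diet groups to different degrees. In gain8 against control8, 5 members rose (Mmp3, Mmp12, Mmp13, Mmp19 and Timp1) and 1 fell (Mmp9), with 12% of all tested genes called higher and 9.52% called lower. In loss against control12, 7 members rose, adding Mmp2 and Mmp14 to those 5, and Mmp9 fell, with 11.8% and 8.24% of all genes called higher and lower. The same 7 rose and Mmp9 fell in regain against control16, with backgrounds of 12.5% and 9.23%. In gain4 against control16, Mmp12 and Timp1 rose and Mmp9 fell, with backgrounds of 3.8% and 2.02%. The 1037 genes called there in both directions were 0 without control16 library 1, 3 without control16 library 2 and 465 without gain4 library 2. The regain, gain4 and maintenance comparisons share their control16 libraries.

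In maintenance against control16, edgeR called 0 members, and it called 0% of all genes higher and 0% lower; 4 members had an unadjusted p under 0.05, and DESeq2 also called 0 members. Over all genes the unadjusted count was 3633, and DESeq2 called 824. The count of 0 genes moved with single libraries: edgeR called 2299 genes without maintenance library 2, among them 1 member, Mmp19, and 559 genes without maintenance library 1, with 0 members. Regain against gain4 gave 0 member calls in edgeR, 5 at an unadjusted p under 0.05 and 1 in DESeq2 (Mmp3), with 4.12% and 1.36% of all genes called higher and lower. Control8 against initial also gave 0 member calls, 0 at an unadjusted p under 0.05 and 0 in DESeq2, with 0.359% and 0.365% of all genes called. The median log2 fold change of the 10 members was 1.01 in gain8, 2.15 in loss, 1.46 in regain, 0.38 in gain4 and 0.24 in maintenance, each against its control, whereas the median of all tested genes lay between -0.04 and 0.02 in these comparisons.

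**Figure D2:**
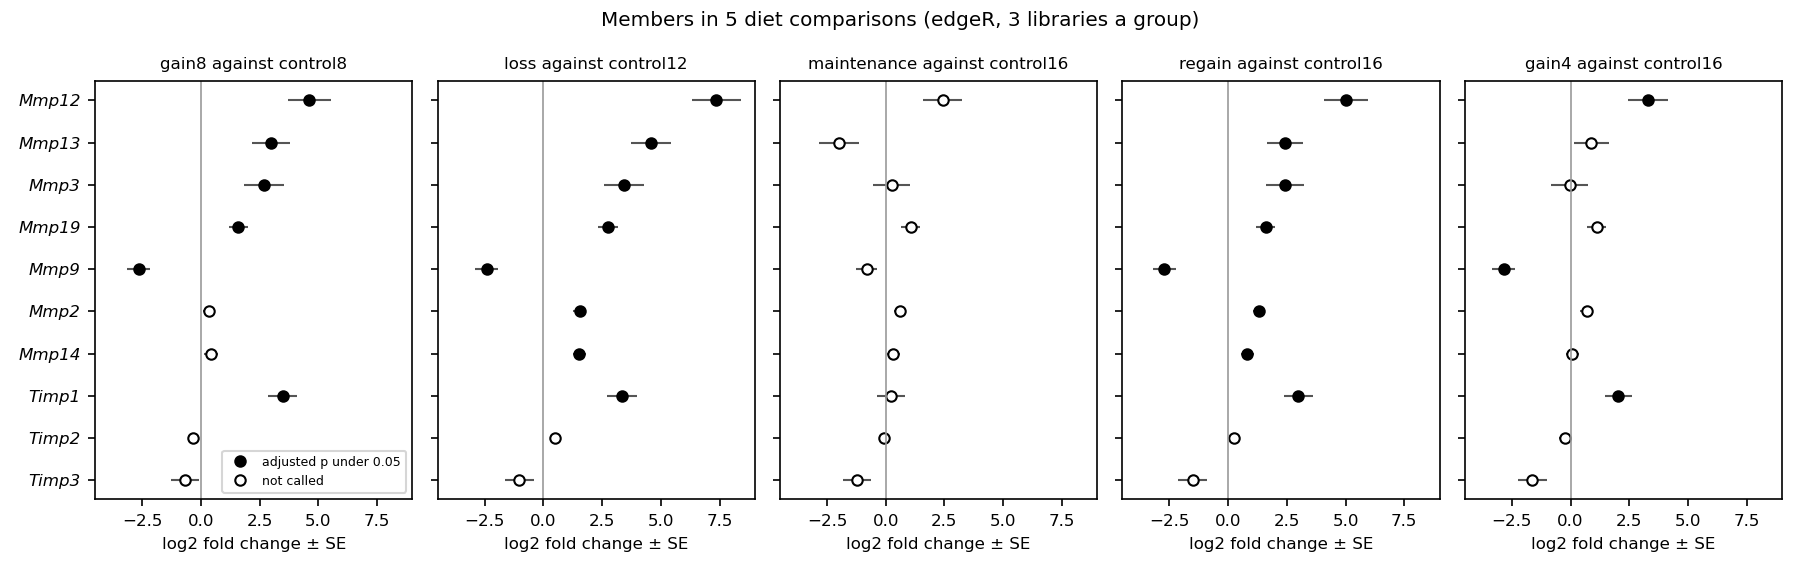
Log2 fold change with its SE (x axis) for each of the 10 members in 5 comparisons of a diet group with its control; filled points have an adjusted p under 0.05 in edgeR, open points do not. Mmp12 lies at 4.62, 7.37, 2.42, 5.02 and 3.30 from left to right, and Mmp9 is called on the negative side in 4 of the 5 panels.

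Mmp12, the macrophage elastase, had the highest fold change among the members in each of those 5 comparisons. Its levels in gain8 libraries were 391, 448 and 428 CPM, against 12.5, 21.6 and 17.4 CPM in control8 libraries. These groups lay far apart and the gain8 libraries differed little among themselves (log2 fold change 4.62 ± 0.91 SE, adjusted p = 0.00135). Initial libraries held 12.3, 52.9 and 20.5 CPM, a range that took in all 3 control8 libraries (log2 fold change of control8 over initial -0.74 ± 0.79, adjusted p = 0.697).

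After 4 weeks back on normal diet, Mmp12 rose against its control as well. Loss libraries held 8206, 646 and 1585 CPM, against 19.4, 7.64 and 36.2 CPM in control12 libraries (log2 fold change 7.37 ± 1.03, adjusted p = 6.88e-05). All 3 loss libraries lay above all control12 libraries, but they differed widely, and library 1 was more than 5 times as high as the next. Leaving out single libraries moved the log2 fold change between 5.73 and 8.01. Without the 3 libraries that stood apart it was 6.37 (adjusted p = 0.000172). The increase over control was not called larger in loss than in gain8: the difference of the differences was 2.74 ± 1.13 on the log2 scale (adjusted p = 0.645). In that comparison edgeR called 0 members and 0% of all genes, although 5 members and 1231 genes had an unadjusted p under 0.05; DESeq2 called 0 members and 32 genes.

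Maintenance libraries held 139, 191 and 38.3 CPM of Mmp12, against 8.50, 13.5 and 46.6 CPM in control16 libraries. The groups overlapped through maintenance library 3 and control16 library 3, and the difference was not called (2.42 ± 0.83, adjusted p = 0.118). Without the 3 libraries that stood apart it was 2.87 (adjusted p = 0.132). Set against the loss effect, the maintenance effect was smaller by a called amount (-4.94 ± 1.17, adjusted p = 0.0128), with 8.97% of all genes called in that difference of differences. Mmp12, Mmp13 and Timp1 were the 3 members called there. The Mmp12 call was lost without loss library 1 and without the 3 libraries that stood apart (-3.50, adjusted p = 0.0707).

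After 4 weeks of high-fat diet at the end of the period, regain libraries held 1210, 593 and 418 CPM and gain4 libraries 136, 306 and 235 CPM. Both groups lay wholly above control16. The log2 fold change over control16 was 5.02 ± 0.93 in regain (adjusted p = 0.000604) and 3.30 ± 0.86 in gain4 (adjusted p = 0.031). Every regain library was above every gain4 library, but the direct comparison was not called (1.71 ± 0.80, adjusted p = 0.187). The gain4 call was lost without gain4 library 2, without control16 library 1 and without control16 library 2, and its log2 fold change ranged from 2.92 to 4.39 over single libraries left out.

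Markers of macrophages moved with Mmp12. The summed level of 14 macrophage markers was 5521 to 6714 CPM in gain8 and 1755 to 2366 CPM in control8; 5250 to 13680 CPM in loss and 1759 to 2208 CPM in control12; and 1062 to 4219 CPM in maintenance, 5712 to 11720 CPM in regain, 3287 to 5693 CPM in gain4 and 2335 to 2815 CPM in control16. None of the 14 was at 0 in any library. Of the 14, 11 rose in gain8, 10 in loss, 12 in regain, 2 in gain4 and 0 in maintenance, and none fell, with median log2 fold changes of 1.60, 1.85, 1.86, 0.77 and 0.06. Of all tested genes, 12%, 11.8%, 12.5%, 3.8% and 0% were called higher in the same order. Cd68, a lysosomal protein of macrophages, rose in gain8 by 2.84 ± 0.49 (adjusted p = 0.000479), and Emr1, which encodes the surface protein F4/80, rose in regain by 2.98 ± 0.41 (adjusted p = 5.58e-05).

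The Mmp12 level differed by more than the macrophage markers' mean. Its log2 CPM less the mean log2 CPM of the 14 markers was 0.76 ± 0.09 in gain8 and -2.36 ± 0.50 in control8, 2.90 ± 1.38 in loss and -2.24 ± 0.99 in control12, and 0.11 ± 0.63 in maintenance, 0.91 ± 0.82 in regain, 0.38 ± 0.76 in gain4 and -2.51 ± 1.30 in control16 (SD, n = 3 each). Within each of these 5 pairs the groups did not overlap on this measure. A second list held 10 genes of lipid-associated macrophages, the lipid-laden cells found around dying adipocytes. Of these, 8 rose in gain8, 7 in loss, 7 in regain, 5 in gain4 and 0 in maintenance. They include Gpnmb, a lysosomal glycoprotein, which stood at 899 ± 30.7 CPM in gain8 and 28.4 ± 3.68 CPM in control8 (log2 fold change 4.98 ± 0.82, adjusted p = 0.00037), and Trem2, a lipid receptor, at 316 ± 112 CPM in regain and 10.4 ± 7.89 CPM in control16 (4.92 ± 0.74, adjusted p = 0.000105). The shares of all genes called higher are given above. The summed level of the list was 22010 to 22700 CPM in gain8 and 14340 to 17980 CPM in control8. It was 17770 to 29460 CPM in loss and 12240 to 18430 CPM in control12. It stood at 14410 to 23610 CPM in maintenance, 18060 to 24200 CPM in regain and 19970 to 23670 CPM in gain4. Control16 held 13660 to 18220 CPM. On this sum, in which abundant genes weigh most, loss, maintenance and regain overlapped with their controls. In control8 it was far above the sum of the 14 macrophage markers, 1755 to 2366 CPM. Gpnmb averaged 28.4 CPM and Lgals3, also on the list, 117 CPM there, so other genes of the list made up most of it. From which cells their RNA came was not tested. What part the markers had in the Mmp12 result was not tested.

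**Figure D3:**
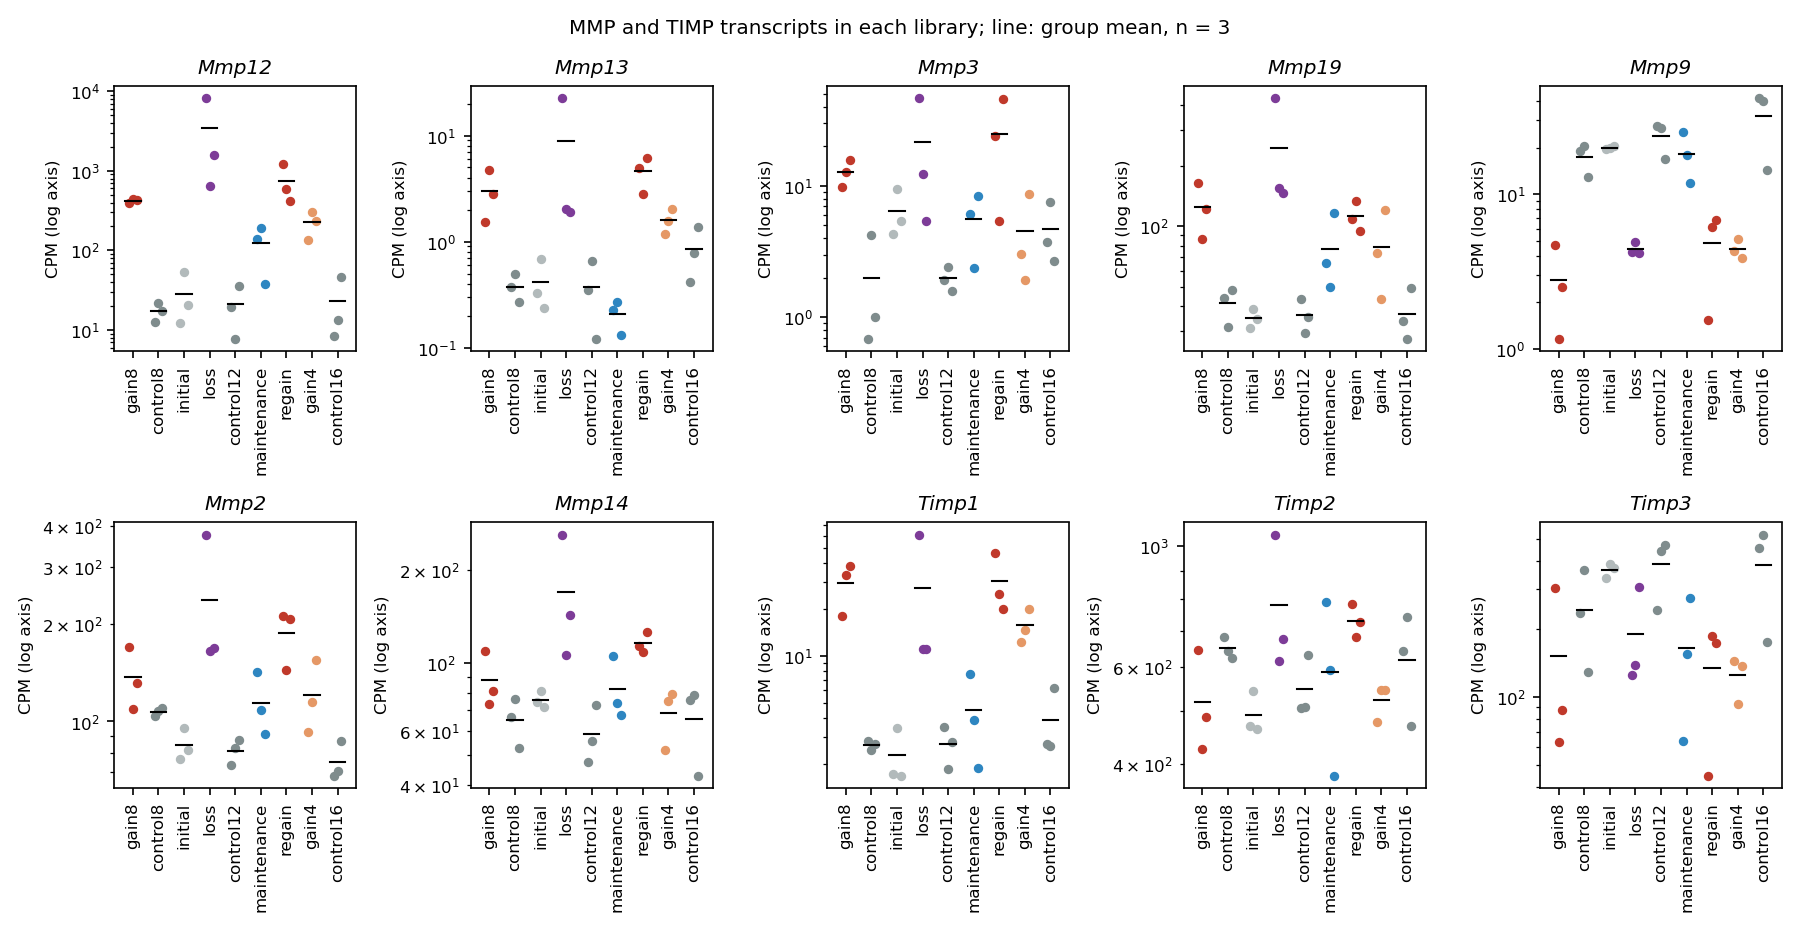
CPM (log axis) of the 10 members in each of 27 libraries by group; points are libraries and lines are group means, with 3 libraries a group. Mmp12 in loss spans 646 to 8206 CPM, and Mmp9 lies at 1.16 to 6.81 CPM in gain8, loss, regain and gain4 and at 11.8 to 41.7 CPM in the other groups.

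Mmp13, the collagenase-3 that cuts fibrillar collagen, rested on few reads. It had the lowest mean FPKM (counts scaled by library size and exonic length) of the members in the initial, maintenance, gain4 and control groups, whereas Mmp9 had the lowest in gain8, loss and regain. Gain8 libraries held 1.53, 4.73 and 2.83 CPM (43, 139 and 80 reads), against 0.370, 0.491 and 0.269 CPM in control8 (12, 16 and 8 reads). The groups did not overlap (log2 fold change 2.99 ± 0.80, adjusted p = 0.0111), though the call was lost without gain8 library 2. Loss libraries held 22.6, 2.02 and 1.92 CPM, against 0.348, 0.649 and 0.120 CPM in control12 (4.58 ± 0.85, adjusted p = 0.000781). Loss library 1, also the highest for Mmp12, held 646 reads, and the other 2 held 60 and 58. Without the 3 libraries that stood apart the log2 fold change of Mmp13 was 1.96 (adjusted p = 0.051).

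Maintenance libraries held 0.226, 0.269 and 0.133 CPM of Mmp13, against 0.412, 0.785 and 1.39 CPM in control16. All maintenance libraries lay below all control16 libraries, but they held only 6, 8 and 3 reads, and the difference was not called (-2.00 ± 0.85, adjusted p = 0.189). The maintenance and loss values have opposite signs, and the difference of these effects was called (-6.58 ± 1.19, adjusted p = 0.00392), also without the 3 libraries that stood apart (-3.72, adjusted p = 0.0269). Regain libraries held 4.94, 2.84 and 6.11 CPM (2.42 ± 0.76 over control16, adjusted p = 0.0275), and gain4 libraries held 1.19, 1.55 and 2.02 CPM (0.88 ± 0.75, adjusted p = 0.491). The regain call was lost without regain library 1 or 3 and without control16 library 1 or 2.

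Mmp3, stromelysin-1, which cuts many matrix proteins and activates other proteases, stood at 9.81, 12.7 and 15.7 CPM in gain8, against 0.679, 4.24 and 1.01 CPM in control8 (2.68 ± 0.83, adjusted p = 0.0255). The groups were apart. The call was lost without gain8 library 2 or 3 and without control8 library 1 or 3, where the log2 fold change ranged from 2.28 to 3.92 over single libraries left out. Loss libraries held 46.7, 12.4 and 5.39 CPM, against 1.94, 2.41 and 1.59 CPM in control12 (3.44 ± 0.86, adjusted p = 0.0078). Here loss library 1 carried much of the mean, and the call was lost without it. Without the 3 libraries that stood apart the Mmp3 log2 fold change was 2.03 (adjusted p = 0.22).

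At 21 weeks of age, Mmp3 libraries were scattered. Maintenance held 6.11, 2.36 and 8.44 CPM, regain 24.2, 5.39 and 45.6 CPM and gain4 3.05, 1.93 and 8.64 CPM, against 3.75, 7.61 and 2.67 CPM in control16. Only the regain difference was called (2.42 ± 0.81, adjusted p = 0.0373), and regain library 2 lay within the control16 range; the call was lost without regain library 1 or 3 and without control16 library 1 or 3. The direct comparison of regain with gain4 was 2.46 ± 0.81 (adjusted p = 0.0716), and was called without the 3 libraries that stood apart (adjusted p = 0.033), without gain4 library 3 and without regain library 2. Those 3 libraries belong to neither group and enter through the shared spread. In the same alternative Mmp2, Mmp13 and Mmp14 were also called higher in regain than in gain4, with adjusted p of 0.0471, 0.0326 and 0.0433. Control8 libraries all lay below initial libraries for Mmp3, which held 4.27, 9.53 and 5.41 CPM (-1.69 ± 0.81, adjusted p = 0.322).

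Mmp19, a protease with a broad range of matrix substrates, rose in 3 of the comparisons. Gain8 libraries held 164, 86.4 and 122 CPM, against 44.1, 31.7 and 48.1 CPM in control8 (1.59 ± 0.41, adjusted p = 0.00843). Loss libraries held 434, 155 and 147 CPM, against 43.3, 29.4 and 35.5 CPM in control12 (2.76 ± 0.42, adjusted p = 0.000148), and regain libraries 108, 134 and 94.4 CPM, against 33.7, 27.4 and 49.4 CPM in control16 (1.61 ± 0.41, adjusted p = 0.00741). None of these groups overlapped with its control, and none of the alternatives changed these 3 calls. Maintenance libraries at 65.6, 49.7 and 116 CPM also lay above control16, library 2 only just, without a call (1.07 ± 0.40, adjusted p = 0.149), and gain4 libraries at 73.5, 43.5 and 120 CPM overlapped with control16 (1.10 ± 0.40, adjusted p = 0.098). The maintenance difference was called without maintenance library 2 (1.31, adjusted p = 0.0483), and the gain4 difference was called without the 3 libraries that stood apart (1.12, adjusted p = 0.0204). Of the exonic bases of Mmp19, 22.33% overlap Tmem198b on the other strand, and whether reads were counted by strand is not known here. Tmem198b averaged 15.1 CPM in gain8 and 14.9 CPM in control8, and 17.9 CPM in loss and 14.3 CPM in control12, and its difference was called in none of the comparisons.

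Mmp2 and Mmp14, the gelatinase A of stromal cells and its membrane-bound activator, had smaller fold changes. Mmp2 held 169, 109.5 and 131 CPM in gain8, against 104, 107 and 110.1 CPM in control8. The groups overlapped and the difference was not called (0.35 ± 0.26, adjusted p = 0.351). Mmp14 held 109, 73.6 and 80.9 CPM in gain8, against 66.6, 76.0 and 53.0 CPM in control8, again with overlap and no call (0.43 ± 0.28, adjusted p = 0.282).

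In loss both were called. Mmp2 held 378, 165 and 169 CPM in loss, against 73.4, 82.6 and 87.8 CPM in control12 (1.54 ± 0.27, adjusted p = 0.000433). Mmp14 held 261, 106 and 143 CPM in loss, against 47.7, 55.9 and 72.6 CPM in control12 (1.53 ± 0.29, adjusted p = 0.000817). Neither gene overlapped between the groups, and library 1 was again the highest. Without the 3 libraries that stood apart the log2 fold changes were 1.09 for Mmp2 (adjusted p = 0.00693) and 1.26 for Mmp14 (adjusted p = 0.00792). The larger effect in loss than in gain8 was not called for either (1.19 ± 0.37, adjusted p = 0.583, for Mmp2, and 1.10 ± 0.40, adjusted p = 0.61, for Mmp14).

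At 21 weeks, Mmp2 held 142, 109 and 91.7 CPM in maintenance, 211, 144 and 207 CPM in regain and 92.9, 115 and 154 CPM in gain4, against 67.9, 70.5 and 87.1 CPM in control16. All 3 groups lay wholly above control16, and only regain was called (1.32 ± 0.27, adjusted p = 0.00135); maintenance gave 0.60 ± 0.26 (adjusted p = 0.203) and gain4 0.68 ± 0.26 (adjusted p = 0.115). The gain4 difference of Mmp2 was called without the 3 libraries that stood apart (0.71, adjusted p = 0.0213). Mmp14 held 105, 73.8 and 67.7 CPM in maintenance, 114, 108 and 126 CPM in regain and 52.0, 74.9 and 79.3 CPM in gain4, against 75.5, 78.6 and 42.9 CPM in control16. Its regain increase was called narrowly (0.82 ± 0.28, adjusted p = 0.041), and leaving out any single library of regain or control16 ended the call.

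Of 13 markers of fibroblasts and progenitors, 2 rose and 2 fell in gain8, where 12% of all genes were called higher and 9.52% lower. In loss 2 rose (11.8% of all genes), in regain 3 (12.5%), in gain4 1 (3.8%) and in maintenance 0, and none fell in these 4 comparisons. In gain8, loss, maintenance, regain and gain4 the markers had median log2 fold changes of -0.49, 0.00, -0.35, -0.20 and -0.03. Their summed level was 8919 to 14810 CPM in gain8 and 17680 to 20700 CPM in control8, 12400 to 19130 CPM in loss and 17300 to 21280 CPM in control12, and 7102 to 23280 CPM in maintenance, 11120 to 12540 CPM in regain, 11900 to 18010 CPM in gain4 and 16060 to 19010 CPM in control16. None of the 13 was at 0 in any library. Gsn had the highest median of the 13 over all libraries, 13000 CPM, and weighed most in the summed level. It averaged 5829 ± 1639 CPM in gain8 and 13740 ± 1433 CPM in control8 (-1.24 ± 0.41, adjusted p = 0.0348). Col1a1 went the other way, at 860 ± 140 CPM in gain8 and 365 ± 138 CPM in control8 (1.24 ± 0.32, adjusted p = 0.00901). Dcn, the matrix proteoglycan decorin, fell in gain8 (-1.23 ± 0.38, adjusted p = 0.0234), whereas Lum, the related lumican, rose in regain (2.14 ± 0.39, adjusted p = 0.000581). The log2 CPM of Mmp2 less the mean of the 13 markers was -0.54 ± 0.10 in gain8 and -1.04 ± 0.10 in control8, 0.16 ± 0.49 in loss and -1.25 ± 0.19 in control12, and -0.66 ± 0.08 in maintenance, -0.32 ± 0.23 in regain, -0.92 ± 0.36 in gain4 and -1.57 ± 0.39 in control16 (SD, n = 3 each). For Mmp14 the same measure was -1.18 ± 0.17 in gain8 and -1.77 ± 0.19 in control8, -0.31 ± 0.52 in loss and -1.73 ± 0.36 in control12, and -1.14 ± 0.10 in maintenance, -0.997 ± 0.222 in regain, -1.73 ± 0.30 in gain4 and -1.81 ± 0.30 in control16. For both genes gain4 overlapped with control16, and the other 4 diet groups lay above their controls. No test was run on this measure.

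Mmp12 was set against the stromal pair directly by the log2 CPM of Mmp12 less the mean log2 CPM of Mmp2 and Mmp14 in each library. It was 1.97 ± 0.40 in gain8 and -2.31 ± 0.37 in control8, 3.45 ± 1.21 in loss and -1.96 ± 1.05 in control12, and 0.08 ± 1.07 in maintenance, 2.19 ± 0.80 in regain, 1.26 ± 0.40 in gain4 and -1.97 ± 1.40 in control16 (SD, n = 3 each). Gain8, loss, regain and gain4 did not overlap with their controls. Maintenance libraries stood at 0.18, 1.09 and -1.04, against -3.06, -2.46 and -0.39 in control16, so that library 3 of each group crossed. The differences between group means were 4.27 in gain8, 5.41 in loss, 2.05 in maintenance, 4.17 in regain and 3.23 in gain4. With 3 libraries against 3, an exact two-sided permutation test cannot give a p below 0.1, and none was run on this ratio.

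**Figure D4:**
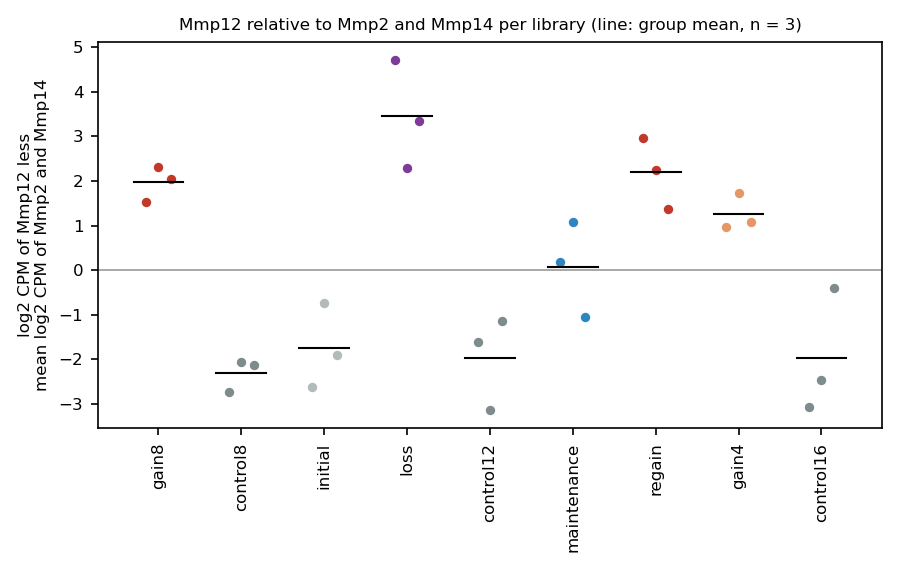
Log2 CPM of Mmp12 less the mean log2 CPM of Mmp2 and Mmp14 (y axis) in each library by group; points are libraries and lines are group means, with 3 libraries a group. All libraries of gain8, loss, regain and gain4 lie above 0 (0.97 to 4.71), and all libraries of the 3 control groups and the initial group lie below 0.

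Mmp9, gelatinase B, went the other way. Gain8 libraries held 4.69, 1.16 and 2.51 CPM, against 18.9, 20.6 and 13.0 CPM in control8 (-2.65 ± 0.49, adjusted p = 0.000819). Loss libraries held 4.23, 4.91 and 4.17 CPM, against 27.5, 26.7 and 16.8 CPM in control12 (-2.41 ± 0.48, adjusted p = 0.00142). Mmp9 fell in both, with no overlap, and none of the alternatives changed either call.

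Regain libraries held 1.54, 6.13 and 6.81 CPM and gain4 libraries 4.31, 5.13 and 3.89 CPM, against 41.7, 40.0 and 14.4 CPM in control16 (-2.72 ± 0.48, adjusted p = 0.000423, in regain and -2.85 ± 0.49, adjusted p = 0.00911, in gain4). The gain4 call was lost without control16 library 1 or 2. Maintenance libraries held 25.0, 17.9 and 11.8 CPM, overlapping with control16 (-0.81 ± 0.45, adjusted p = 0.32). Control8 over initial was -0.19 ± 0.45 (adjusted p = 0.872), with 19.7, 19.8 and 20.3 CPM in the initial libraries. Mmp9 is widely known as a neutrophil enzyme. The summed level of 10 neutrophil markers was 21.3 to 54.7 CPM in gain8 and 4.82 to 8.80 CPM in control8, 3.61 to 6.55 CPM in loss and 4.43 to 7.05 CPM in control12, and 6.36 to 10.9 CPM in maintenance, 8.14 to 42.2 CPM in regain, 26.2 to 61.0 CPM in gain4 and 5.99 to 15.5 CPM in control16. Ly6g, which defines mouse neutrophils, was at 0 in 22 of 27 libraries and at most 0.0699 CPM in the others, and Ngp was at 0 in 16. S100a8 was the 1 neutrophil marker called in gain8, where it rose by 3.71 ± 0.86 on the log2 scale (adjusted p = 0.00441), opposite to Mmp9. It averaged 36.85 ± 16.73 CPM in gain8 and 2.81 ± 1.04 CPM in control8, and so made up most of the summed level in gain8.

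Of 11 adipocyte markers, 1 rose and 1 fell in gain8, 3 fell in loss, 3 fell in regain and 0 changed in gain4 and maintenance, with 9.52%, 8.24%, 9.23%, 2.02% and 0% of all genes called lower. Their median log2 fold changes were -0.47, -0.83, -0.77, 0.07 and 0.26 in that order, so that some adipocyte markers fell together with Mmp9 in loss and regain. Their summed level was 28710 to 32700 CPM in gain8 and 25370 to 32080 CPM in control8, 9146 to 32270 CPM in loss and 23400 to 47130 CPM in control12, and 27960 to 42220 CPM in maintenance, 17120 to 25640 CPM in regain, 33930 to 45590 CPM in gain4 and 29430 to 42190 CPM in control16. The log2 CPM of Mmp9 less the mean of the 11 markers was -8.31 ± 0.90 in gain8 and -5.72 ± 0.49 in control8, -6.97 ± 0.80 in loss and -5.58 ± 0.09 in control12, and -6.02 ± 0.76 in maintenance, -7.29 ± 1.08 in regain, -7.87 ± 0.16 in gain4 and -5.10 ± 1.10 in control16 (SD, n = 3 each). Gain8, loss, regain and gain4 lay below their controls on this measure, and the gap between group means was smallest in loss. The part of the adipocyte markers in the Mmp9 result was not tested.

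Of the 3 inhibitors among the members, edgeR called Timp1, a soluble TIMP known to be induced in inflammation, and neither Timp2 nor Timp3. Gain8 libraries held 18.1, 33.4 and 38.0 CPM, against 2.81, 2.46 and 2.72 CPM in control8 (3.49 ± 0.62, adjusted p = 0.000639). Loss libraries held 60.9, 11.1 and 11.1 CPM, against 3.48, 1.87 and 2.78 CPM in control12 (3.35 ± 0.62, adjusted p = 0.000773). Both groups lay wholly above their controls, loss library 1 being the highest of all 27, and without the 3 libraries that stood apart the loss value was 2.05 (adjusted p = 0.0164).

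Regain libraries held 46.5, 25.1 and 20.1 CPM and gain4 libraries 12.3, 14.7 and 20.2 CPM of Timp1, against 2.70, 2.63 and 6.18 CPM in control16 (2.99 ± 0.61, adjusted p = 0.00136, in regain and 2.04 ± 0.59, adjusted p = 0.0454, in gain4). The gain4 call was lost without gain4 library 2 or 3 and without control16 library 1 or 2. Maintenance libraries held 7.66, 3.87 and 1.90 CPM and overlapped with control16 (0.22 ± 0.58, adjusted p = 0.859). The maintenance effect was smaller than the loss effect by a called amount (-3.13 ± 0.83, adjusted p = 0.0233), a call lost without loss library 1, control12 library 2, maintenance library 3 or control16 library 3. Over single libraries left out this difference ranged from -3.75 to -1.80, the value nearest 0 being that without loss library 1, and without the 3 libraries that stood apart it was -1.44 (adjusted p = 0.288). With only the groups compared the call was lost as well. The log2 CPM of Timp1 less the mean of the 14 macrophage markers was -3.13 ± 0.50 in gain8 and -4.98 ± 0.12 in control8, -3.79 ± 0.88 in loss and -4.95 ± 0.29 in control12, and -4.58 ± 0.19 in maintenance, -3.63 ± 0.67 in regain, -3.41 ± 0.26 in gain4 and -4.80 ± 0.71 in control16 (SD, n = 3 each). Gain8, loss and gain4 lay above their controls on this measure, and regain and maintenance overlapped with control16.

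Timp2, which also takes part in activating the Mmp2 precursor, held 645, 426 and 486 CPM in gain8, against 683, 643 and 624 CPM in control8 (-0.33 ± 0.23, adjusted p = 0.334). It held 1048, 615 and 677 CPM in loss, against 505, 508 and 630.3 CPM in control12 (0.51 ± 0.24, adjusted p = 0.126). Over all 27 libraries it ranged from 380.0 to 1048 CPM, from maintenance library 3 to loss library 1, and it was not called in any of the comparisons.

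Timp3, the inhibitor bound to the matrix, varied widely between libraries. It held 304, 63.3 and 87.7 CPM in gain8, against 236, 366 and 129 CPM in control8 (-0.69 ± 0.61, adjusted p = 0.441), and 125, 138 and 306 CPM in loss, against 244, 444 and 472 CPM in control12 (-1.03 ± 0.61, adjusted p = 0.241). Both pairs overlapped. It held 63.5, 155 and 275 CPM in maintenance, 44.7, 186 and 174 CPM in regain and 144, 93.3 and 137 CPM in gain4, against 455, 524 and 175 CPM in control16. All gain4 libraries lay below all control16 libraries, but no call was made in gain4 (-1.62 ± 0.62, adjusted p = 0.112), regain (-1.51 ± 0.62, adjusted p = 0.0854) or maintenance (-1.22 ± 0.61, adjusted p = 0.264). DESeq2 called Timp3 lower in gain4 and regain, and edgeR did so in regain without control16 library 3 (-1.89, adjusted p = 0.048). The edgeR call in regain was also gained with the library sets split at 1000 CPM of Lars2 as a model term. With that term regain against gain4 moved from 0.115 to -0.633, without a call. Within gain8, control8, control12, maintenance, regain and control16, libraries above 1000 CPM of Lars2 held more Timp3 than the others. In loss and gain4 this was not so, and what lies behind it was not tested. Of the exonic bases of Timp3, 21.28% overlap Syn3 on the other strand, which averaged 0.96 CPM over all libraries.

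Levels of different genes were compared on the deposited FPKM, which are scaled by library size and by exonic length. Timp2 had the highest mean in every group but loss, where it averaged 207.5 FPKM and Mmp12 485.8 FPKM. In loss library 2 the order was reversed, with 161 FPKM of Timp2 and 91.2 FPKM of Mmp12. Mmp12 was second in gain8 at 59.5 ± 5.47 FPKM and eighth in control8 at 2.53 ± 0.72 FPKM (SD, n = 3 each). Its deposited exonic length of 7237 bases is the second longest of the members, which lowers its FPKM relative to theirs. In control8 Mmp2 averaged 37.6 ± 1.17 FPKM and Mmp14 26.9 ± 5.47 FPKM (SD, n = 3 each), the 2 highest proteases there. Timp1 averaged 34.3 FPKM in gain8 and 3.19 FPKM in control8. In gain8 it was near Mmp14 at 34.4 FPKM, and the libraries of these neighbours overlapped.

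The summed FPKM of the 7 proteases over the summed FPKM of the 3 inhibitors was 0.992 ± 0.058 in gain8 and 0.407 ± 0.024 in control8, 2.42 ± 1.65 in loss and 0.373 ± 0.032 in control12, and 0.678 ± 0.086 in maintenance, 1.08 ± 0.17 in regain, 0.741 ± 0.127 in gain4 and 0.378 ± 0.094 in control16 (SD, n = 3 each). All 5 diet groups lay wholly above their controls. Without Mmp12 in the sum the ratio was 0.667 ± 0.025 in gain8 and 0.395 ± 0.022 in control8, and 0.868 ± 0.204 in loss and 0.358 ± 0.033 in control12, so that the groups stayed apart. Mmp12 made up 32.5% of the protease sum in gain8 and 2.92% in control8, 56.7% in loss and 3.99% in control12, and 14.3% in maintenance, 37.9% in regain, 24.9% in gain4 and 4.27% in control16, on average over libraries. Mmp2 and Mmp14 together made up 42.9% in gain8 and 74.5% in control8, and 28.0% in loss and 69.6% in control12. Timp1 made up 19.2% of the inhibitor sum in gain8 and 1.51% in control8, and 14.2% in regain and 2.40% in control16. These are sums of transcripts per length and say nothing of protein. They cover the members only and are not the balance of all proteases and inhibitors in the tissue. Timp4, which is not in them, averaged 150 CPM in gain8 and 278 CPM in control8. Timp3, which is, averaged 151.5 CPM in gain8 and 243.6 CPM in control8.

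**Figure D5:**
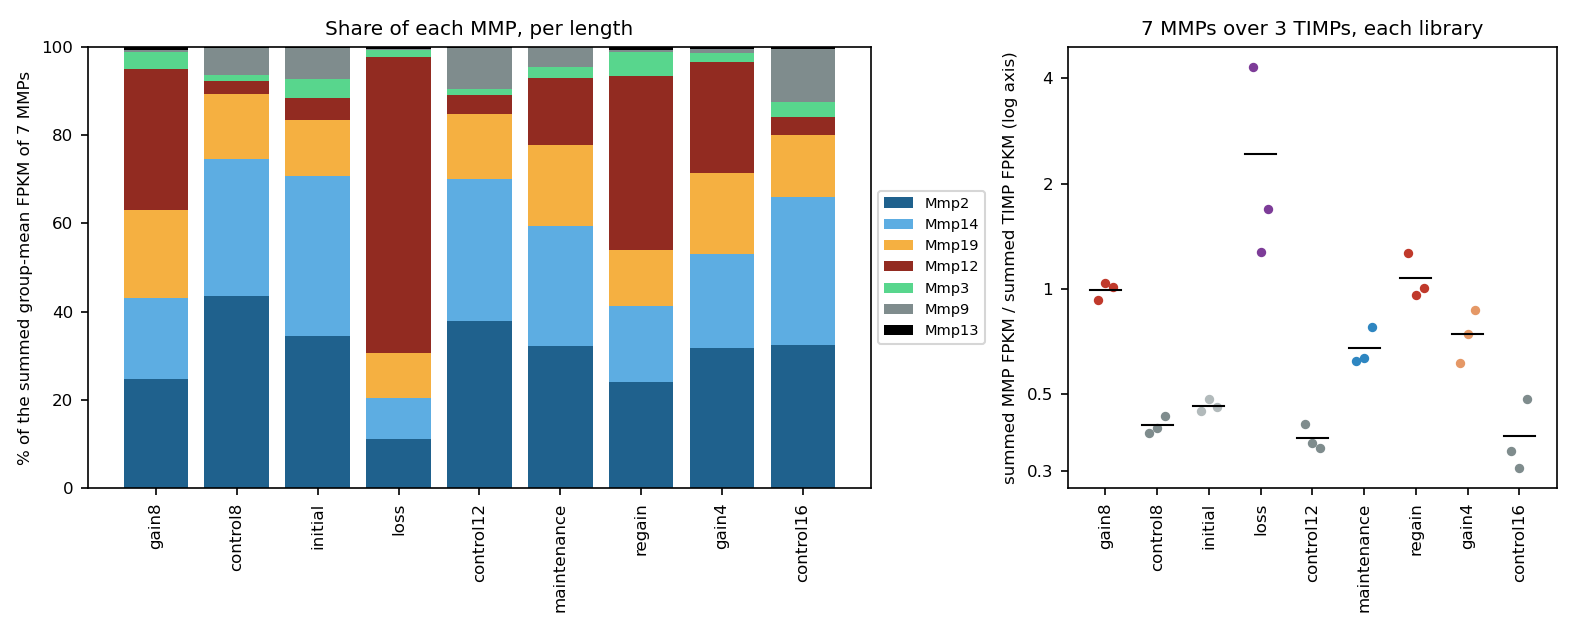
Left, share of each protease in the summed group-mean FPKM of the 7 member proteases (percent). Right, summed FPKM of these proteases over that of Timp1, Timp2 and Timp3 (log axis) in each library. Lines are group means, with 3 libraries a group. Mmp12 takes 32.0% in gain8 and 67.1% in loss, against 2.9% in control8 and 4.2% in control12, and every library of the 5 diet groups has a higher ratio than the libraries of its control.

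The rest of the protease network was described from lists. The shares of all tested genes called higher were 12% in gain8, 11.8% in loss, 12.5% in regain, 3.8% in gain4 and 0% in maintenance. Those called lower were 9.52%, 8.24%, 9.23%, 2.02% and 0% in the same order. Of 14 cathepsins, the lysosomal proteases of macrophages and other cells, 8 rose in gain8, 8 in loss, 8 in regain, 4 in gain4 and 0 in maintenance, and none fell, with median log2 fold changes of 1.26, 1.26, 1.20, 0.58 and 0.11. Ctsk, cathepsin K, which cuts collagen and elastin, held 655, 195 and 226 CPM in loss, against 15.9, 22.3 and 30.0 CPM in control12 (3.98 ± 0.45, adjusted p = 2.65e-05). Ctss, cathepsin S, averaged 726 ± 78.1 CPM in gain8 and 109.8 ± 21.9 CPM in control8 (2.72 ± 0.49, adjusted p = 0.000676). In regain Ctsk rose by 3.22 ± 0.44 (adjusted p = 4.78e-05) and Ctss by 3.18 ± 0.50 (adjusted p = 0.000145).

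Of 25 ADAM and ADAMTS proteases, 2 rose and 2 fell in gain8, 4 rose and 2 fell in loss and in regain, 1 rose and 1 fell in gain4, and 0 changed in maintenance. These counts lay near the shares of all genes given above. Adam8, a membrane protease of myeloid cells, held 208, 271 and 247 CPM in gain8, against 15.3, 14.7 and 14.9 CPM in control8 (4.02 ± 0.77, adjusted p = 0.00107), and rose in regain by 4.77 ± 0.80 (adjusted p = 0.000237). Adam17, which sheds TNF from the cell surface and is inhibited by Timp3, rose in gain8 by 0.93 ± 0.21 (adjusted p = 0.00315) and was higher in regain than in gain4, at 120 ± 15.9 CPM in regain and 60.1 ± 17.6 CPM in gain4 (1.003 ± 0.21, adjusted p = 0.0279). Adamts9 fell in loss (-1.83 ± 0.43, adjusted p = 0.00529).

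Among 10 other matrix metalloproteinases that could be tested, of 16 listed, 1 fell in gain8, 3 rose and 1 fell in loss and 1 rose in regain. Apart from the 3 that rose in loss, these counts lay near the shares of all genes given above. Of those 3, Mmp8 had the smallest adjusted p but lay near 0 and was scattered. It averaged 0.707 ± 1.02 CPM in loss, from 0.101 to 1.89 CPM, and 0.0428 ± 0.0450 CPM in control12 (3.83 ± 1.08, adjusted p = 0.0167). Mmp11, stromelysin-3, held 83.4, 69.8 and 89.9 CPM in loss, against 25.2, 29.8 and 25.4 CPM in control12 (1.60 ± 0.48, adjusted p = 0.0246). Mmp7 was the gene that fell in gain8 and in loss; it held at most 0.102 CPM in gain8 libraries and 0.0, 38.2 and 8.26 CPM in control8, and at most 0.132 CPM in loss and 0.0, 0.0764 and 71.7 CPM in control12. Its highest levels were thus in control8 library 2 and control12 library 3, which also had the highest sums of epididymal and efferent duct markers, 127.9 and 210.1 CPM; their part in the Mmp7 result was not tested. Of the plasminogen system, which activates several of these proteases, Plau (urokinase) and its receptor Plaur rose in gain8, loss and regain, Plau by 1.02 ± 0.29 in gain8 (adjusted p = 0.0142), 1.59 ± 0.29 in loss (adjusted p = 0.00066) and 1.79 ± 0.29 in regain (adjusted p = 0.000186). In gain8 and loss Serpine2, an inhibitor of urokinase, was lower than in the controls. It averaged 55.7 CPM in gain8, 102 CPM in control8 and 44.8 CPM in the initial group. Serpine2 was itself called higher in control8 than in initial (1.19 ± 0.19, adjusted p = 0.00964), so gain8 was not below the level before treatment.

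Of 4 other inhibitors tested, Tfpi2 rose and Reck, a membrane-bound inhibitor, fell in gain8, loss, gain4 and regain alike. Reck held 14.6, 8.16 and 10.96 CPM in gain8, against 21.3, 26.1 and 15.4 CPM in control8 (-0.89 ± 0.23, adjusted p = 0.00783). Timp4, the remaining TIMP, held 65.2, 103 and 54.1 CPM in regain, 294, 345 and 132 CPM in gain4 and 486, 364 and 456 CPM in control16. It fell in regain against control16 (-2.56 ± 0.52, adjusted p = 0.00136) and was lower in regain than in gain4 (-1.80 ± 0.51, adjusted p = 0.0421), with no overlap in either case.

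The genes most like the main members over the 27 libraries were found by Pearson's r of log2 CPM, as a description over libraries that share group and depth. They were Gpnmb (0.984), Ctsk (0.962) and Gla (0.960) for Mmp12; Ctsk (0.921), Anxa4 (0.920) and Akr1b8 (0.919) for Mmp2; Rufy1 (0.926), Tnfsf12Tnfsf13 (0.921) and Arhgap10 (0.918) for Mmp14; and Clec4a2 (0.974), Sirpb1c (0.972) and Card9 (0.966) for Timp1. Ctsk was among the 3 most alike for both Mmp12 and Mmp2. With group means removed, the r of Mmp12 with Gpnmb was 0.894 and that of Mmp2 with Ctsk 0.826. For Mmp9, a search added after its values were seen gave Trpc1 (0.909), Ltbp1 (0.900) and Fam13a (0.899).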

How the data were processed

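RNA of epididymal fat (60-70 mg of tissue a sample) was used for libraries (TruSeq RNA kit), as stated per the labels' protocols. Trimmomatic 0.33, TopHat2 2.0.13 and HTSeq 0.6.0 are named in the submitters' processing notes; no strand setting is stated there. The deposited raw counts per gene (43616 rows, 43460 names; the 156 repeats were identical) entered edgeR 4.0.16 in R 4.3.3 (quasi-likelihood test, TMM scaling, filterByExpr with a minimum count of 10 and total of 15), with all 27 libraries in 1 model and Benjamini-Hochberg adjustment over 17821 genes. Calls needed an adjusted p under 0.05. SE is the fold change over the square root of its test statistic. CPM use TMM-scaled library sizes, and log2 CPM a prior count of 2. The deposited FPKM, made by the authors, served for levels between genes. Between replicates, chi-square over its degrees of freedom ran from 11.9 to 534, above counting noise. Alternatives were DESeq2 1.42.0, limma 3.58.1 on log2(FPKM + 1), RLE scaling, no filter, only the groups compared, replicate blocks, library sets split at 1000 CPM of Lars2, and libraries left out. All 10 members are named; from each list described, up to 3 called genes with the smallest adjusted p in a comparison could be named. The members and lists were chosen with earlier results of these data known.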

Additional observations from a re-analysis of the deposited data

Results flagged for a closer look

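3 members had an effect in maintenance that differed from their effect in loss, by a test of the difference of the 2 effects in edgeR. For Mmp12 the log2 fold change was 2.42 in maintenance against control16 and 7.37 in loss against control12, a difference of -4.94 (adjusted p = 0.0128). For Mmp13 it was -2.00 in maintenance and 4.58 in loss, a difference of -6.58 (adjusted p = 0.00392). For Timp1 it was 0.22 in maintenance and 3.35 in loss, a difference of -3.13 (adjusted p = 0.0233). Of all tested genes, 8.97% were called in this test. All 3 member calls were lost with only the groups compared. The calls of Mmp12 and Timp1 were also lost without loss library 1 and without the 3 libraries that stood apart. Mmp13 held only 6, 8 and 3 reads in the maintenance libraries, and its call was lost with limma.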

How the results depend on the processing

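Over the alternatives, 1380 values of members were recomputed; 1300 kept their side of the threshold, 54 calls were lost, 26 were gained, and no called value changed sign. Uncalled values changed sign 46 times. No alternative changed the calls of Mmp9, Mmp12, Mmp19 and Timp1 in gain8, or of Mmp2, Mmp9, Mmp12, Mmp19 and Timp1 in loss and in regain against control16.

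With only the groups compared, members called numbered 5 in loss (8 in the results reported), 0 in gain4 (3), 1 in control8 against initial (0) and 0 in the maintenance-against-loss difference (3). Without the 3 libraries that stood apart they numbered 5 in gain4, 4 in regain against gain4 (0) and 1 in that difference. With DESeq2 they numbered 1 in regain against gain4 and 6 in that difference. Over single libraries left out, the count ran from 0 to 1 in maintenance, 0 to 3 in gain4, 5 to 7 in regain against control16 (8), 0 to 1 in regain against gain4 and 1 to 6 in that difference. With limma the Mmp13 calls in gain8, regain and that difference were lost; with only the groups compared, so were those of Mmp3, Mmp13 and Mmp14 in loss and of Mmp3 in regain; with no filter, that of Mmp14 in regain. The causes were not tested.

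Replicate numbers did not pair libraries: correlations of same-numbered deviations ran from -0.158 to 0.31, in 0 of 7 comparisons were all over 0.1, and in 0 of 7 did every library correlate best with its own number. With the replicate number as a block, 2 members were called in gain4 and 7 in regain against control16, where Timp1 and Mmp3 lost their calls, and the counts of member calls were otherwise as without the block.

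Counts over all genes moved by more than 1.5 times in the following cases, beside those with a single library left out, which are given as ranges. For gain8 the count was 5898 with only the groups compared (3833 in the results reported), and for loss 1096 with only the groups compared and 1479 without the 3 libraries (3564). For maintenance it was 149 with RLE scaling, 217 with no filter and 824 with DESeq2 (0). For gain4 it was 641 with no filter, 0 with only the groups compared, 2624 without the 3 libraries and 2105 with DESeq2 (1037). For regain against gain4 it was 239, 0, 2916 and 2145 in the same order, 606 with the block and 1471 with limma (978). For control8 against initial it was 78, 2087, 1057 and 673 in that order and 83 with the Lars2 term (129). For the loss-against-gain8 difference it was 9 without the 3 libraries, 32 with DESeq2 and 3 with limma (0), and for the maintenance-against-loss difference 1 with only the groups compared and 512 without the 3 libraries (1599). Over single libraries left out, the count over all genes ran from 2129 (without gain8 library 2) to 3289 in gain8, 1185 (without loss library 1) to 4406 in loss, 0 to 2299 (without maintenance library 2) in maintenance, 0 (without control16 library 1) to 1504 in gain4 and 2248 (without regain library 3) to 3173 in regain against control16. It ran from 0 (without gain4 library 1 or regain library 3) to 2340 (without gain4 library 3) in regain against gain4, 0 (without control8 library 1) to 64 in control8 against initial, 0 to 6 in the loss-against-gain8 difference and 489 (without loss library 1) to 2525 (without loss library 2) in the maintenance-against-loss difference.

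Mmp13 rests on 3 to 646 reads a library, which limits its values.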

Other observations

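Substrates of the proteases were described from 2 lists. The shares of all tested genes called higher were 12% in gain8, 11.8% in loss, 12.5% in regain, 3.8% in gain4 and 0% in maintenance. Those called lower were 9.52%, 8.24%, 9.23%, 2.02% and 0% in the same order. Of 12 fibrillar and network collagens, 8 rose in gain8, 1 in loss, 3 in regain, 2 in gain4 and 0 in maintenance, and none fell, with median log2 fold changes of 1.03, 0.54, 0.80, 0.67 and -0.61. Col6a2, a chain of the collagen VI that surrounds adipocytes, averaged 1688 ± 310.3 CPM in gain8 and 436 ± 106 CPM in control8 (SD, n = 3 each; log2 fold change 1.95 ± 0.36 SE, adjusted p = 0.000802), and Col6a1 rose in gain8 by 1.60 ± 0.31 (adjusted p = 0.00124). In loss Col1a1, of collagen I, was the 1 collagen called (0.93 ± 0.32, adjusted p = 0.0432), a count near the share of all genes.

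Of 19 genes of elastic fibres and adhesive matrix, 4 rose and 1 fell in gain8, 1 rose and 2 fell in loss, 1 rose and 3 fell in regain, 1 rose in gain4 and 0 changed in maintenance. The 2 that fell in loss were a count near the share of all genes given above. Eln, which encodes elastin, a substrate of Mmp12, averaged 62.2 ± 33.4 CPM in loss and 179 ± 37.4 CPM in control12 (-1.53 ± 0.44, adjusted p = 0.0193). Any link between Eln and Mmp12 was not tested. Fbln5, which binds elastin, averaged 98.9 ± 20.7 CPM in regain and 322 ± 98.9 CPM in control16 (-1.70 ± 0.41, adjusted p = 0.00492). Spp1, osteopontin, also on the list of lipid-associated macrophages, rose in regain by 6.04 ± 1.24 (adjusted p = 0.00151), at 82.3 ± 33.7 CPM in regain and 1.24 ± 0.66 CPM in control16.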
